A study of Mus musculus with 80 samples.

Results

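Peroxisomal fatty acid oxidation was followed in the mouse liver through 9 genes: Ehhadh, Hsd17b4, Acaa1a and Acaa1b, which encode enzymes of the pathway, Crat and Crot, which encode carnitine transferases, Pex11a, which encodes a membrane factor of peroxisome division, and Abcd2 and Abcd3, which encode transporters of the peroxisome membrane. They were taken by gene symbol and are 9 of the 78275 genes listed in the deposited count table. All 9 passed the filter on low counts, and the lowest count of any of them in any library was 112, of Abcd2.

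Peroxisomes shorten very long, branched and dicarboxylic fatty acids by a cycle of oxidation, hydration, dehydrogenation and thiolysis that resembles the mitochondrial one. The first step is run by acyl-CoA oxidases and yields hydrogen peroxide, the middle steps are run by the bifunctional enzymes EHHADH and HSD17B4, and the last by thiolases, and the shortened products leave as carnitine esters or free acids to be finished in mitochondria. In the rodent liver many of these genes are known targets of the fatty acid receptor PPARA, which is active in fasting.

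The livers came from C57BL/6J mice aged 8 to 12 weeks, group-housed on standard chow under 12 h of light and 12 h of darkness for 10 days and killed in constant darkness from day 11 on. Control mice ate freely throughout, and fasted mice lost their food at circadian time (CT) 10, so that the livers of CT8 were taken before the fast and those of CT12 to CT44 after 2 to 34 h without food. Samples were taken every 4 h at 10 times from the centre of the left lobe, and each treatment and time held 2 males and 2 females, which gave 80 libraries of polyadenylated RNA from as many mice, 40 of each treatment. Groups follow the sample titles, since the other labels name another sex for 40 libraries and another treatment for 40. Xist lay between 835 and 1634 counts per 1000000 (CPM), here of the unscaled total, in the titled females and reached at most 2.05 in the titled males. Ddx3y separated the sexes the other way round, so that each library's titled sex was borne out by its own counts.

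Gene counts summed to 25534900 to 59927800 a library, rounded to 6 digits. The library of control CT8 female 2 gave 31.3% of its counts to the ribosomal repeat Rn18s-rs5, against at most 4.88% in any other. All 8 hepatocyte markers were detected in each library, at a summed level of 70157 to 118874 CPM in control and 85618 to 141608 CPM in fasted livers from CT12 to CT44. Summed levels of Kupffer cell markers had a median of 377 CPM in control and 287 CPM in fasted livers of the same times. Since each library is a piece of whole liver, fewer cells of a type and less RNA per cell cannot be told apart.

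Levels are given in CPM, of the scaled total of each library, and differences as the log2 of fasted over control mice at the same time (the fasting effect), fitted to all 80 libraries with edgeR's quasi-likelihood test and called at a p below 0.05 after Benjamini–Hochberg adjustment over 21187 genes. Over the mean of CT12 to CT44, 8 of the 9 genes rose with fasting and none fell, beside 62.5% of all genes called in either direction, 29.5% higher and 32.9% lower. The median effect of the 9 genes was 0.78, and that of all genes tested was -0.02. The order from the largest effect down was Ehhadh, Pex11a, Crat, Acaa1a, Hsd17b4, Acaa1b, Crot, Abcd3 and Abcd2, and only Abcd2 did not pass the test. The 8 calls held under other scalings of the libraries, under limma and DESeq2, and without any 1 replicate or time.

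**Figure D1:**
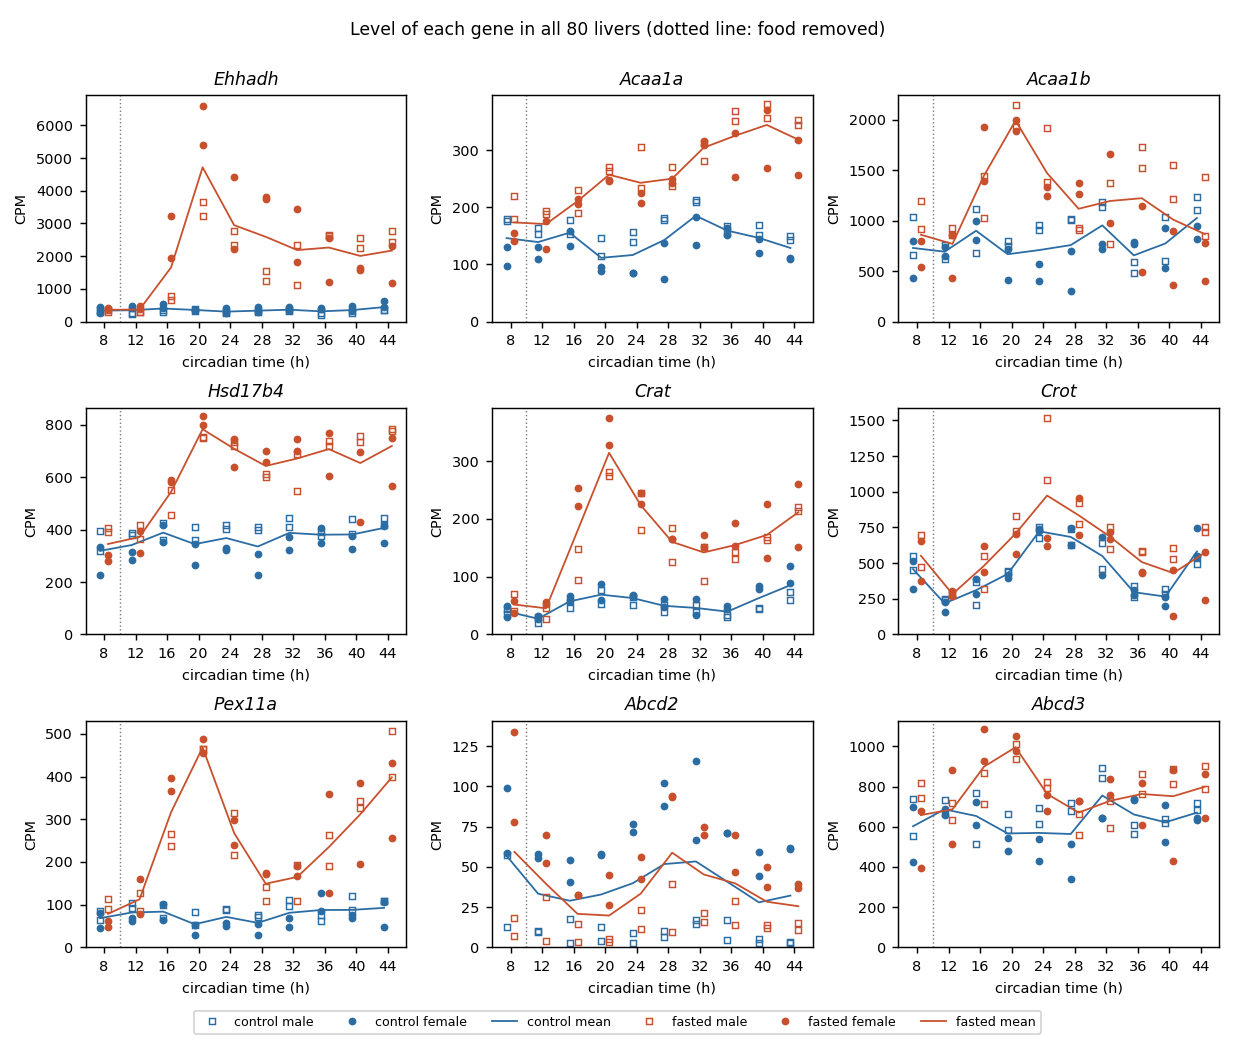
Level of each of the 9 genes in all 80 livers, in CPM on a linear axis from 0, against circadian time, with control mice in blue and fasted mice in orange, males as open squares, females as filled circles and the mean of each group as a line. The Ehhadh means of the fasted livers leave those of the controls after CT12 and peak at CT20, at 4717.5 CPM, while Abcd2 separates by sex rather than by treatment.

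Most of the 9 genes moved together, so the DNA just before their starts was read from RefSeq's promoter table on GRCm38.p6. The table held entries for Ehhadh, Acaa1a, Acaa1b, Crot, Pex11a and Abcd3. The 250 bases before the start are printed for the genes with the largest effects that the table holds and for both Acaa1 copies, 5′ to 3′ on the gene's strand, with capitals marking the letters CCAAT or their reverse complement. That of Ehhadh is chr16:21787835-21788084 on the minus strand, that of Pex11a is chr7:79743132-79743381 on the minus strand, that of Acaa1a is chr9:119341044-119341293 on the plus strand and that of Acaa1b is chr9:119157094-119157343 on the minus strand. Starts are those of RefSeq. The window of Acaa1a lies inside the gene as GENCODE M21 draws it, from chr9:119339676 on, as does a window of Abcd3, and that of Crot overlaps its gene in part.
Ehhadh: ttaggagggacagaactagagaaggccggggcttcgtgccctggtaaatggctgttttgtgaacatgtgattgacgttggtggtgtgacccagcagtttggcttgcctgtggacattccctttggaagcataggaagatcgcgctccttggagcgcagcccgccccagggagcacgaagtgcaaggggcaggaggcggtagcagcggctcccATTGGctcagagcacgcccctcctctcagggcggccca
Pex11a: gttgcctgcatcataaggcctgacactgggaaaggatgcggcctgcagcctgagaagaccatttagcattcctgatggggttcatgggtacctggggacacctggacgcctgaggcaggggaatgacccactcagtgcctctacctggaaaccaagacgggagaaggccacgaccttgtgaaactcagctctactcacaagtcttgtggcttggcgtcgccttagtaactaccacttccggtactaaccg
Acaa1a: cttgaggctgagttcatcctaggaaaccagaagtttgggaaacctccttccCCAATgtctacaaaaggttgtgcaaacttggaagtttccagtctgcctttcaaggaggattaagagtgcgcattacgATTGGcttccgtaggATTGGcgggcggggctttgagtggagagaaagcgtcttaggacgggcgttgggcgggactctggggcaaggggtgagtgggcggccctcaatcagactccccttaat
Acaa1b: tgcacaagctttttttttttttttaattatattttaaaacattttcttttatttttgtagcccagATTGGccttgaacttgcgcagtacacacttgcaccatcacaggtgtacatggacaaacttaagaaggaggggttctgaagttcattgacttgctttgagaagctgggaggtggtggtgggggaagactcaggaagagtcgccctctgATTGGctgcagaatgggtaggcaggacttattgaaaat

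On both strands, the nuclear receptor half-site AGGTCA was found in none of the 6 genes' windows, while 14.0% of 32851 promoters in the table held it. A pair of such half-sites 1 base apart, the form PPARA binds with its partner RXR, was not met with up to 2 mismatches in any of them, against 3.24% of all promoters. The E-box CACGTG, the site of the clock factors CLOCK and BMAL1, was in none of the 6 and in 6.02% of all. The CCAAT box, chosen after these letters had been read, was in 33.8% of all promoters. It occurred 34 bases before the start of Ehhadh and of Acaa1b, nearest at 103 bases in Acaa1a and at 70 bases in Crot, and not in Pex11a or Abcd3. A match is a description of letters, and its absence says only that these letters are not in these windows. The half-site is part of the paired form, and its last letters can be the first of an E-box.

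Ehhadh, the bifunctional enzyme for the hydration and dehydrogenation of straight-chain substrates, changed most. At CT20, 10 h into the fast, the control livers gave 383 and 314 CPM in the males and 367 and 363 in the females, and the fasted livers 3218 and 3666 CPM in the males and 6599 and 5387 in the females. Every fasted liver lay above every control liver, and the fasted females above the fasted males. The fasting effect was 3.67 ± 0.25 (SE, adjusted p = 2.18e-15), or 12.7-fold.

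The rise was not seen at CT12, where the effect was 0.11 ± 0.23, and it was in progress at CT16. The fasted livers then gave 769 and 669 CPM in the males and 1959.9 and 3230.2 in the females, above all 4 controls, which gave 290.5 and 351 CPM in the males and 413 and 546 in the females. From CT16 to CT44 the effect passed the test at each of 8 times without overlap between groups, and after CT20 it lay between 2.30 and 3.27. Over CT12 to CT44 the mean effect was 2.43 ± 0.079 (SE, adjusted p = 7.97e-29). Control livers ranged from 193 to 641 CPM with a median of 347, and fasted livers, those of CT12 included, from 305 to 6599 CPM with a median of 2322.

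Hsd17b4, the bifunctional enzyme that also takes branched-chain and bile acid substrates, rose by less. At CT20 the control livers held 361 and 409 CPM in the males and 266 and 344 in the females, and the fasted livers 749 and 753 CPM in the males and 834 and 799 in the females, without overlap. The effect at that time was 1.19 ± 0.12 (SE, adjusted p = 1.31e-10), and from CT24 to CT44 it stayed between 0.77 and 0.97. It passed at 8 of 9 times, and lost the call at CT16 when a male replicate was left out: without male replicate 1 it was 0.48 (adjusted p = 0.111) and without male replicate 2 0.47 (adjusted p = 0.12). The mean effect was 0.78 ± 0.041 (SE, adjusted p = 2.49e-21), and its group means followed those of Ehhadh with a Pearson r of 0.98 over 20 means of treatment and time, a description of points that share libraries.

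Acaa1a and Acaa1b encode near-identical thiolases of the last step, both on chromosome 9, and their reads cannot be divided with certainty. Of all 76-base windows in the GENCODE M21 transcripts, 12.5% of Acaa1a's and 32.1% of Acaa1b's also occur in transcripts of another gene, 456 windows of each being shared between the copies. The longest run of letters common to both coding parts is 327 bases, and a read that lies within it matches both. Its first 76 bases, the length of a read, are:
Acaa1a and Acaa1b: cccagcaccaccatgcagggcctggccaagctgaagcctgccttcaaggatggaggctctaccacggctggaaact

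At CT20 the control livers gave 116 and 147 CPM in the males and 87.8 and 96.4 in the females for Acaa1a, and the fasted livers 263 and 270.3 CPM in the males and 247 and 247 in the females, a gap without overlap and an effect of 1.22 ± 0.13 (SE, adjusted p = 2.28e-10). For Acaa1b the controls gave 749.5 and 795 CPM in the males and 412 and 716 in the females, and the fasted livers 2151 and 1932 CPM in the males and 1996 and 1894 in the females, also without overlap, with an effect of 1.59 ± 0.29 (SE, adjusted p = 1.65e-05). Later the copies went different ways in their values. Acaa1a had an effect of 1.31 ± 0.13 at CT44, its highest, while Acaa1b had -0.31 ± 0.28, which did not pass the test, and its fasted livers gave 1435 and 852 CPM in the males and 405 and 779 in the females against 1110.4 and 1237 CPM in the males and 947 and 816 in the females in the controls.

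Acaa1a passed at 8 of 9 times, although its effect of 0.44 at CT16 lost the call without male replicate 1 (adjusted p = 0.161) or 2 (adjusted p = 0.171). Acaa1b passed at CT20, CT24 and CT36. The call of Acaa1b at CT24 was lost without either male replicate, with 1.20 (adjusted p = 0.065) without male replicate 1 and 1.01 (adjusted p = 0.107) without male replicate 2. At CT36 the value was 0.46 (adjusted p = 0.204) without female replicate 1, 0.71 (adjusted p = 0.27) without male replicate 1 and 0.78 (adjusted p = 0.0653) with the replicate number as a block, and it was 0.95 (adjusted p = 0.131) without male replicate 2. Over CT12 to CT44 the effects were 0.91 ± 0.043 (SE, adjusted p = 4.23e-23) and 0.59 ± 0.094 (SE, adjusted p = 4.57e-07) in that order, and 0.66 for the counts of both summed (adjusted p = 1.09e-09), a value that needs no division between the copies, although part of their windows is shared with Myd88 or Dlec1.

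Crat and Crot load short and medium chains onto carnitine for export. Crat, the carnitine acetyltransferase, went from 68.9 ± 15.8 CPM (SD, n = 4) in control to 314 ± 46.2 CPM (SD, n = 4) in fasted livers at CT20. The fasted livers gave 274 and 282 CPM in the males and 374 and 328 in the females, all above the controls, which gave 77.3 and 52.4 CPM in the males and 59.3 and 86.6 in the females. Its effect was 2.18 ± 0.22 (SE, adjusted p = 7.35e-11) then, 1.58 ± 0.22 at CT16 and at least 1.34 at each later time. It passed at 8 of 9 times without overlap between the groups, and over all 9 times the mean effect was 1.61 ± 0.072 (SE, adjusted p = 1.04e-23).

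Crot, the carnitine octanoyltransferase, varied widely over the day in both treatments. In control livers its mean went from 218 ± 39.5 CPM (SD, n = 4) at CT12 to 723 ± 36.1 CPM (SD, n = 4) at CT24, and in fasted livers from 283 CPM to 973 ± 417 CPM (SD, n = 4) at the same times. At CT24 the fasted livers gave 1516 and 1085 CPM in the males and 674 and 618 in the females, with only the males above the control range. The mean effect was 0.45 ± 0.082 (SE, adjusted p = 6.23e-06), and in a fit of females alone it was 0.29 (adjusted p = 0.0768). Single times passed at CT20, CT36 and CT40, with effects of 0.73, 0.76 and 0.63. Without male replicate 1 or 2 these lost the call, with adjusted p of 0.137 and 0.188 at CT20, 0.134 and 0.243 at CT36, and 0.219 and 0.21 at CT40.

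At CT40 a single liver decided the value of Crot. Fasted female 2 gave 129 CPM beside 455 to 607 CPM in the other 3, and without that library the effect was 0.97 (adjusted p = 0.00099). Without female replicate 2 of all groups it was 1.08 (adjusted p = 0.00028), and without female replicate 1, which leaves that liver as the only fasted female, it was -0.04 (adjusted p = 0.925). A fit with a replicate block gave 0.51 (adjusted p = 0.134).

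Pex11a, which elongates peroxisomes before they divide and is known to be induced by peroxisome proliferators, had the second largest effect. At CT20 its control livers gave 52.2 and 83.4 CPM in the males and 28.5 and 52.2 in the females, and the fasted livers 464 and 464 CPM in the males and 488 and 455 in the females. The 4 fasted livers lay close together, at 468 ± 14.1 CPM (SD, n = 4), and far above the controls. The effect was 3.16 ± 0.29 (SE, adjusted p = 6.84e-12), or 8.94-fold.

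After CT20 Pex11a came part of the way back and was higher again at the end in its values. The fasted mean was 149 CPM at CT28 and 398 CPM at CT44, and the effect was 1.42 ± 0.27 at CT28, 1.08 ± 0.27 at CT32 and 2.11 ± 0.28 at CT44. All 8 times from CT16 on passed the test, 6 of them without overlap. The call at CT32 was lost without male replicate 1, at 0.80 (adjusted p = 0.251), and without male replicate 2, at 1.31 (adjusted p = 0.0546), and the effect at CT36 was 0.85 (adjusted p = 0.00817) without female replicate 1 in place of 1.46. The mean effect was 1.71 ± 0.092 (SE, adjusted p = 6.79e-21).

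Abcd3, the abundant transporter of the liver peroxisome that takes dicarboxylic, branched-chain and bile acid precursors, passed the test at CT20. Its control livers then gave 582 and 664 CPM in the males and 477 and 544 in the females, and the fasted livers 1012 and 939 CPM in the males and 1051 and 979.6 in the females, without overlap. The effect was 0.82 ± 0.17 (SE, adjusted p = 0.000171), and at CT16 it was 0.45 ± 0.17 (SE, adjusted p = 0.0518) and at CT24 0.44 (adjusted p = 0.0584), times at which 9 and 6 of 17 alternatives called it. At CT40, where the effect was 0.26, 3 of 17 did, with 0.49 (adjusted p = 0.0271) without fasted CT40 female 2. At all times but CT20 it ranged from -0.04 to 0.45. Over CT12 to CT44 it was 0.30 ± 0.057 (SE, adjusted p = 1.47e-05), with 341 to 890.4 CPM with a median of 645 in control and 430.4 to 1089 CPM with a median of 790.3 in fasted livers.

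Abcd2, a transporter of very long and polyunsaturated acyl-CoA, did not pass at any time or in the mean, where the effect was 0.26 ± 0.16 (SE, adjusted p = 0.167). Without CT20 the mean effect was 0.40 (adjusted p = 0.0456), without male replicate 1 0.23 (adjusted p = 0.0281) and without male replicate 2 0.26 (adjusted p = 0.0125). Without the filter on low counts it was called at 9 of the 10 single times, CT8 included. Leaving out male replicate 2 gave calls at CT20 (-1.33), CT28 (1.30), CT36 (1.23) and CT44 (0.78), and leaving out male replicate 1 at CT40 (1.02). With all libraries its values at single times went from -0.83 at CT20 to 0.75, and this gene is taken up again with the sexes.

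Counted by time, none of the 9 genes passed edgeR's test at CT8, before the fast, beside 1.33% of all genes, and none at CT12, beside 1.6%. At an unadjusted p under 0.05 there were 1 and 2, limma called none at either time, and DESeq2 called none at CT8 and Crat at CT12. Other alternatives gave calls there too, at CT8 for Acaa1a and Abcd3 without female replicate 1 (adjusted p = 0.0167 and 0.0238) and for Abcd2 without a filter on low counts (0.00019). At CT12 they gave Acaa1a without female replicate 2 (adjusted p = 0.0304), and Crat, Pex11a and Abcd2 without that filter. Counts of members past the test, all higher, were 5 at CT16, 8 at CT20, 6 at CT24, 5 at CT28, 5 at CT32, 7 at CT36, 6 at CT40 and 5 at CT44. The shares of all genes called higher at those times were 11.5%, 17.5%, 12.2%, 9.88%, 8.4%, 12.8%, 18.7% and 18.7%. Ehhadh, Pex11a, Crat, Acaa1a and Hsd17b4 made up the 5 genes called at CT16, CT28, CT32 and CT44.

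Groups that did not overlap, with all 4 fasted livers above all 4 controls, were counted for 0 of the 9 genes at CT8 and for Crot at CT12, beside 1.13% and 3.11% of all genes. From CT16 on the counts were 5, 8, 6, 5, 4, 5, 4 and 5, beside 9.57%, 15%, 9.97%, 9.52%, 9.3%, 11.1%, 12.5% and 13.9% of all genes. None of the 9 lay wholly below its controls at any of the 10 times.

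**Figure D2:**
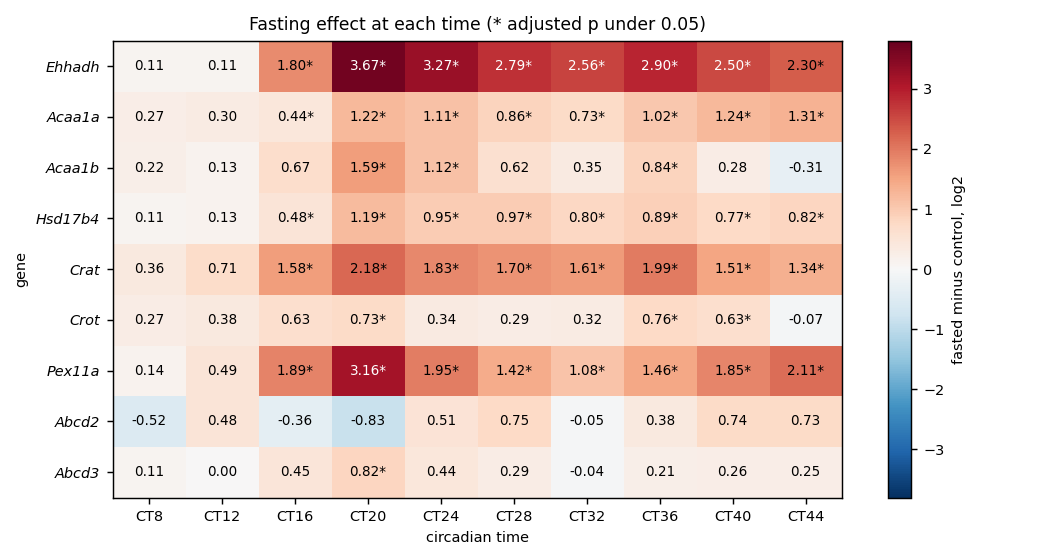
Fasting effect of each gene at each of the 10 times as a coloured grid, fasted minus control on the log2 scale, with the value printed in each cell and an asterisk where the adjusted p was under 0.05. No cell carries an asterisk at CT8 or CT12, 8 of 9 do at CT20, and Abcd2 has none.

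In GENCODE M21, on the build GRCm38, the genes lie on 8 chromosomes, and 7 of the 9 are read from the minus strand. Ehhadh covers chr16:21761287-21787807 in 1 annotated transcript, Pex11a chr7:79735957-79743131 in 4, Crat chr2:30400471-30415813 in 13 and Crot chr5:8966033-8997324 in 3. Abcd2 covers chr15:91145871-91191799 and Abcd3 chr3:121758774-121815302. The Acaa1 copies lie apart on chromosome 9, Acaa1b at chr9:119148023-119157093 and Acaa1a at chr9:119339676-119350299, on opposite strands.

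Per kilobase of exonic length the genes stood far apart. In control livers the median over CT12 to CT44 was 393 CPM per kilobase for Acaa1b, 116 for Ehhadh, 111 for Hsd17b4, 97.8 for Abcd3 and 76.2 for Crot. Acaa1a had 33.6, Pex11a 23.6, Crat 9.67 and Abcd2 4.90. In fasted livers the order at the top was different, with 779 for Ehhadh against 641 for Acaa1b, and Hsd17b4 at 205, Abcd3 at 119.9 and Crot at 110.3 came next. Pex11a then had 78.0, Acaa1a 59.0, Crat 30.9 and Abcd2 5.37. Neighbours in these orders overlapped in range between libraries, those of Ehhadh, Hsd17b4 and Abcd3 in control livers included, and the Acaa1 levels carry the uncertainty of shared reads.

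Whether a longer fast changed the response was asked at matched phase, as the effect at CT36, CT40 and CT44 minus that at CT12, CT16 and CT20. It was past the test for 2 of the 9 genes, both higher, beside 9.91% of all genes higher and 21.2% in either direction. Acaa1a gave 0.54 ± 0.10 (SE, adjusted p = 0.000183), and its call held without any 1 phase or replicate but not in females alone, where the value was 0.43 (adjusted p = 0.108). Some markers of other cells fell in this contrast, in which 21.2% of all genes were called in either direction. They were 6 of 7 of Kupffer cells with a median of -0.76, 4 of 6 of stellate cells with -0.46 and all 5 erythroid ones with -0.95. The other marker lists are not given for this contrast, and the part of the markers was not tested. Summed with Acaa1b, the value of Acaa1a was -0.32 (adjusted p = 0.254), since Acaa1b itself went the other way in its value, -0.53 ± 0.23 (SE, adjusted p = 0.0947).

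Ehhadh gave 0.70 ± 0.18 (SE, adjusted p = 0.00461), a value that changed sign with the phases left in. Without CT12 and CT36 it was -0.34 (adjusted p = 0.342), and without CT20 and CT44 it was 1.74 (adjusted p = 2.83e-07). The call was lost without male replicate 1 (adjusted p = 0.158) or 2 (adjusted p = 0.0883). In males alone the value was 1.59 (adjusted p = 1.59e-06) and in females alone -0.16 (adjusted p = 0.784).

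The difference between the sexes in that contrast, added after the members' values had been seen, was -1.77 ± 0.37 (SE, adjusted p = 0.0184) for Ehhadh, females minus males, and it passed for no other of the 9 genes, beside 0.519% of all genes. It lost the call without male replicate 1 (adjusted p = 0.606) or 2 (adjusted p = 0.291). The values behind it crossed: at CT16 the fasting effect of Ehhadh was 2.44 ± 0.34 in females and 1.16 ± 0.32 in males, and at CT36 it was 2.23 ± 0.33 and 3.56 ± 0.35. The fasted livers of CT36 gave 2625 and 2653 CPM in the males, and 2564 and, in female 2, 1218 in the females. The value in females at CT36 thus leans on that single low liver. Control males of CT36 gave 193 and 253 CPM, against 392 and 415 in the control females. At CT44 the fasted livers gave 2767 and 2429 CPM in the males and 1192 and 2299 in the females, with a female lowest. For each of the other 8 genes the contrast was also below 0, from -1.76 for Abcd2 to -0.24 for Acaa1a, without passing the test. These values come from the same livers as that of Ehhadh and do not repeat it independently. The share of all genes below 0 in this contrast is not given here.

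**Figure D3:**
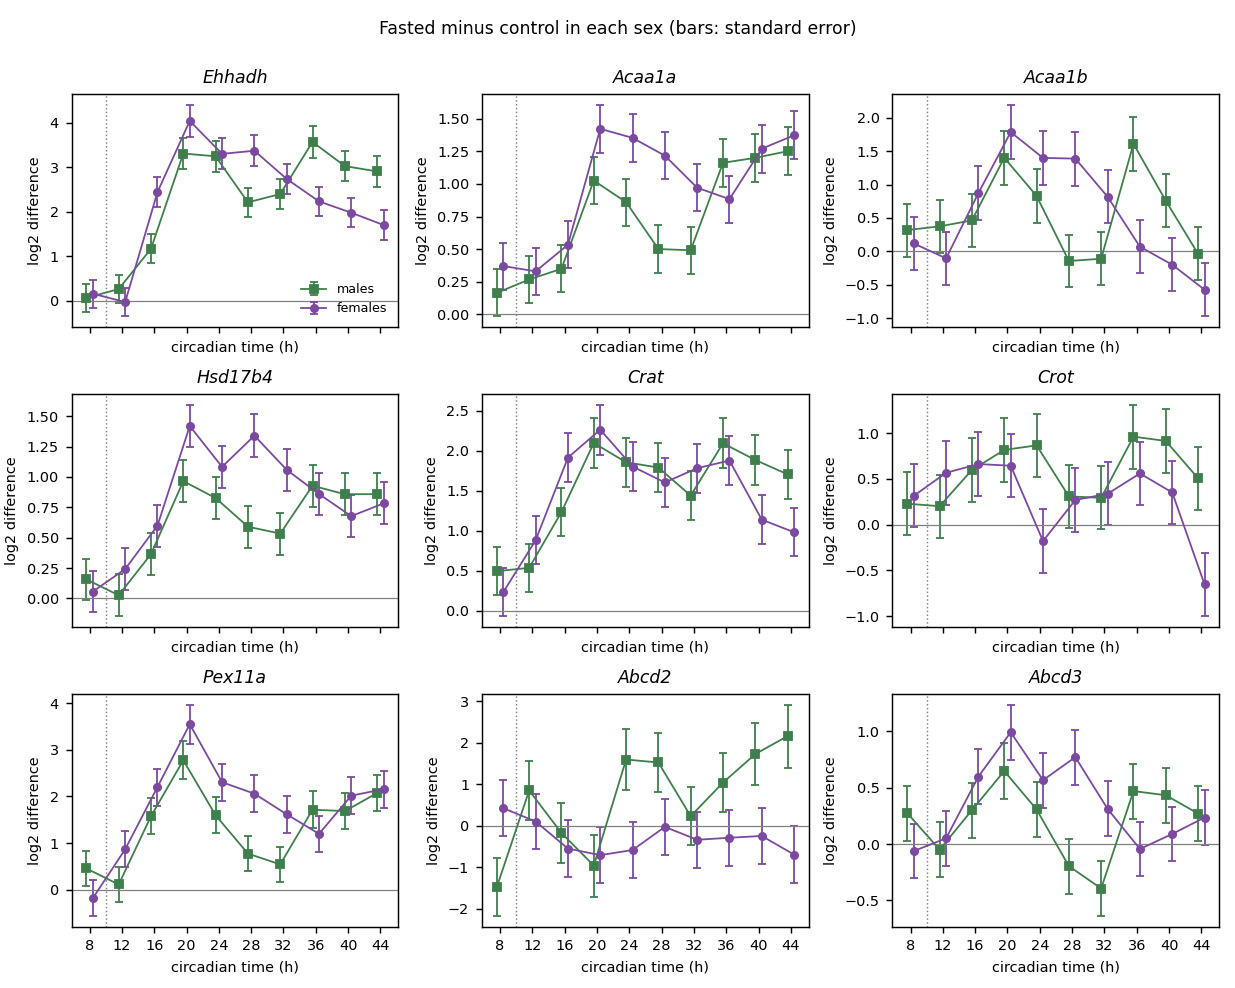
Fasting effect of each gene in males (green squares) and females (purple circles) against circadian time, on the log2 scale, with bars of 1 standard error from the fit to all 80 libraries. For Ehhadh the females lie above the males at CT16 to CT32 and below them at CT36 to CT44, and for Abcd2 the male values lie above the female ones at most times.

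Averaged over CT12 to CT44, the fasting effect differed between the sexes for 4 of the 9 genes, beside 12.4% of all genes. It was larger in females for Pex11a, by 0.57 ± 0.18 (SE, adjusted p = 0.03), with 2.00 in females and 1.43 in males. For Acaa1a the difference was 0.25 ± 0.085 (SE, adjusted p = 0.0442) and for Hsd17b4 0.23 ± 0.081 (SE, adjusted p = 0.0483). The mean levels differed mainly in the controls, at 66.4 CPM in females and 88.3 in males for Pex11a, against 274 and 264 in fasted livers. For Acaa1a they were 123 and 162 CPM in controls and 253 and 285 in fasted livers. Hsd17b4 had 338 and 403 CPM in controls and 640 and 651 in fasted livers. None of these 3 sex differences held throughout. Without male replicate 1 and male replicate 2 the adjusted p was 0.182 and 0.402 for Pex11a, 0.28 and 0.375 for Acaa1a, and 0.242 and 0.494 for Hsd17b4. Without female replicate 1 it was 0.0522 for Pex11a and 0.0962 for Hsd17b4, and with a replicate block it was 0.0775, 0.0723 and 0.114 for the 3 genes.

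Without control CT8 male 2, a library of a time that this contrast does not use, the adjusted p was 0.0516 for Acaa1a and 0.0524 for Hsd17b4. Over all genes the count fell from 2621 to 238 without male replicate 1 and to 360 without male replicate 2.

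For Abcd2 the difference was -1.26 ± 0.33 (SE, adjusted p = 0.00848), with an effect of 0.89 ± 0.24 (SE, adjusted p = 0.00198) in males and -0.37 ± 0.22 (SE, adjusted p = 0.159) in females, where a fit of females alone called it at -0.37 (adjusted p = 0.00163). The difference lost the call without female replicate 1, at -1.17 (adjusted p = 0.147), and without female replicate 2, at -1.36 (adjusted p = 0.0861). At CT44 the control livers gave 3.18 and 2.68 CPM in the males and 61.2 and 61.6 in the females, and the fasted livers 15.1 and 11.1 CPM in the males and 36.6 and 39.4 in the females. Both fasted males lay above both control males there, and both fasted females below both control females. Not every time was like this. At CT20 the fasted males gave 3.22 and 5.11 CPM against 12.4 and 3.71 in the control males, at CT16 the males overlapped, and at CT28 the females had means of 93.5 CPM fasted and 95.1 CPM control.

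Fed females and males already differed in 8 of the 9 genes over the 10 control times, 3 higher in females and 5 lower, beside 20.6% and 18.6% of all genes. Abcd2 differed most, by 2.94 ± 0.23 (SE, adjusted p = 2.54e-14), or 7.68-fold. The 20 fed females ranged from 40.6 to 116 CPM with a median of 61.4, and the 20 fed males from 2.68 to 57.2 CPM with a median of 9.18. The ranges met only through control CT8 male 2, at 57.2 CPM, since the other males reached at most 17.7 CPM, and without that library the difference was 3.08 (adjusted p = 5.73e-14).

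Ehhadh was higher in fed females by 0.44 ± 0.10 (SE, adjusted p = 0.000399) and Crat by 0.33 ± 0.10 (SE, adjusted p = 0.0041), the latter without a call when female replicate 1 was left out, at 0.22 (adjusted p = 0.13). Of the genes lower in fed females, Acaa1a differed by -0.44 ± 0.057 (SE, adjusted p = 2.11e-08) and Pex11a by -0.43 ± 0.12 (SE, adjusted p = 0.00355). Acaa1b differed by -0.35 ± 0.13 (SE, adjusted p = 0.0234), Hsd17b4 by -0.27 ± 0.054 (SE, adjusted p = 7.61e-05) and Abcd3 by -0.19 ± 0.077 (SE, adjusted p = 0.0457). Crot gave -0.06 ± 0.11. Leaving out a replicate ended the call of Pex11a (male 2, adjusted p = 0.103), of Acaa1b (male 1, 0.102, and male 2, 0.258) and of Abcd3 (male 1, 0.131, and male 2, 0.416). Abcd3 also lost it without control CT8 female 2 (adjusted p = 0.0949), with a replicate block (0.0622) and with upper quartile scaling (0.0793). All 7 Kupffer cell markers, 5 of 6 endothelial, 5 of 6 stellate and 5 of 6 leukocyte markers were higher in fed females, all 5 erythroid markers were lower, and bile duct markers had 3 higher and 1 lower. Of the 8 hepatocyte markers 2 were higher and 2 lower. Their part in these differences was not tested.

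Time of day was tested in the 40 control libraries with a 24 h cosine. Of the 9 genes 4 varied, beside 41.8% of the 20114 genes tested in that fit. Crot had the widest rhythm, 1.65 on the log2 scale from trough to peak, with its peak at CT1.85 (adjusted p = 9.96e-11). Crat had 1.05 and a peak at CT21.6 (adjusted p = 5.46e-07), and Acaa1a had 0.49 and a peak at CT10.6 (adjusted p = 0.000835). Abcd2 gave 1.33 (adjusted p = 0.00212), but without male replicate 2 it was 0.59 (adjusted p = 0.19) and without control CT8 male 2 alone 0.93 (adjusted p = 0.0127).

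The carnitine transferases also had a called 24 h wave in the fasted livers from CT12 to CT44, fitted with a linear change over time. The fasted mean of Crat went from 45.3 CPM at CT12 to 314 at CT20 and 142 at CT32. A rhythm and the onset of the response to the fast cannot be told apart in such a wave. Crot then had 1.27 with a peak at CT1.74, and Crat 1.39 with a peak at CT22.1. Neither differed from its control rhythm past the test, with a difference of 0.37 (adjusted p = 0.584) for Crot and 0.37 (adjusted p = 0.622) for Crat, trough to peak. That test does not show that the rhythms were alike.

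A difference in the 24 h wave between fasted and control livers was called for 5 of the 9 genes, beside 21.6% of 20965 genes. Pex11a had the widest, 1.65 from trough to peak (adjusted p = 0.000123), and it passed under every alternative run for it. Its fasted wave of 1.58 peaked at CT19.6, and its control wave in the same fit was 0.50 (adjusted p = 0.173). The others were Ehhadh with 1.44 (adjusted p = 0.0321), Abcd3 with 0.56 (0.0298), Acaa1a with 0.54 (0.0161) and Hsd17b4 with 0.49 (0.0442). Over CT12 to CT44 a wave of 24 h and the onset of the response to the fast share their times and cannot be told apart.

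These 4 lost the call in part of the alternatives. Leaving out 1 replicate gave Ehhadh an adjusted p of 0.0573 without male replicate 1, 0.111 without male replicate 2, 0.0807 without female replicate 1, 0.16 without female replicate 2. For Hsd17b4 it was 0.0901 without male replicate 1, 0.114 without male replicate 2, 0.0552 without female replicate 1, 0.266 without female replicate 2. For Acaa1a it was 0.0528 without male replicate 1, 0.053 without female replicate 2, and for Abcd3 0.104 without male replicate 1, 0.146 without male replicate 2. In the wave of Acaa1a the control livers carried the rhythm, 0.53 against 0.02 in fasted livers, whose level instead went up by 0.28 in log2 per 10 h in the fitted line.

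Use of exons within the genes was compared in the table of counts per exon bin, a piece of an exon as the annotation divides it. A change against the rest of the gene was called for 4 of the 9 genes, beside 14.3% of 13889 genes. The bins came with numbers and without coordinates, and 3 of the 80 columns, all of fasted CT40, matched a library other than that of their own name, so that fasted CT40 was fitted without sex. Acaa1a (adjusted p = 1.05e-08) had 5 bins higher, by 0.15 to 0.27, and the share of bin 16 went from 2.59% ± 1.04 of the gene's counts in control to 3.22% ± 0.77 in fasted livers (SD, n = 36 each). Reads of Acaa1b can fall in such bins, and their part in this result was not tested.

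In Crot (adjusted p = 1.67e-12) bins 13 and 21 were higher, by 0.30 and 0.55, the latter from a share of 0.181% ± 0.050 to 0.323% ± 0.095. In Hsd17b4 (adjusted p = 8.58e-09) bin 28 was higher by 0.42, at 0.073% ± 0.027 of the counts in control and 0.114% ± 0.044 in fasted livers. That call was absent when bins under 10 counts in any library were left out (adjusted p = 1.00), which removes this bin. Crat (adjusted p = 0.0446) had bin 30 higher by 0.37, without a call under limma (0.487), with the bins under 10 counts left out (1.00), without male replicate 1 (0.438), without female replicate 1 (0.458) and without female replicate 2 (0.134). No other bin of these 4 genes passed the test.

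**Figure D4:**
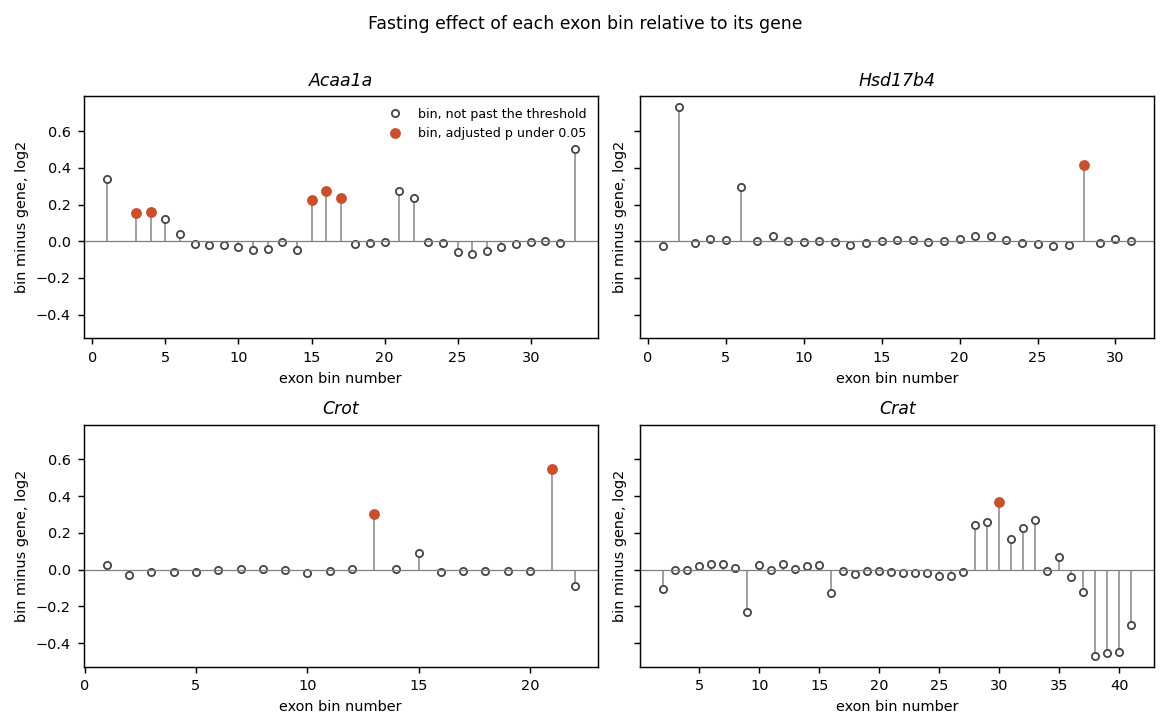
Fasting effect of each exon bin minus that of its gene, on the log2 scale, against bin number, for the 4 genes with a called change, with filled points for bins at an adjusted p under 0.05. Most bins lie near 0, and the called ones, 5 in Acaa1a, 1 in Hsd17b4, 2 in Crot and 1 in Crat, lie above it.

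Other genes of peroxisomal beta-oxidation were taken from a list of 14. In the mean over CT12 to CT44, 8 rose and 2 fell, with a median of 0.37. Beside this and each list below, 29.5% of all genes were called higher in that mean and 32.9% lower. Acox2, the oxidase of bile acid precursors and branched chains, rose by 0.51 ± 0.034, while Acox3, another branched-chain oxidase, fell with -0.36 ± 0.035.

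The racemase Amacr rose by 0.22 ± 0.034. Scp2, whose long form is a thiolase for branched chains, gave 0.09 ± 0.048 (SE, adjusted p = 0.0827). The largest rise in the list was that of Eci2, an enoyl-CoA isomerase for unsaturated chains, with 1.11 ± 0.058, and the largest fall that of Pecr, a reductase of trans-2-enoyl-CoA, with -0.43 ± 0.06.

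Of 8 peroxisomal CoA hydrolases 5 rose and 1 fell, with a median of 1.00. Acot3, an acyl-CoA thioesterase, rose by 2.13 ± 0.20, and Nudt7, which cleaves CoA itself, fell with -2.05 ± 0.073. Among alpha-oxidation and ether lipid genes 3 of 6 tested rose and 2 fell, led by Aldh3a2 with 0.80 ± 0.089 and Far1 with -0.45 ± 0.06. Among 11 other oxidases and matrix enzymes 1 rose, the protease Lonp2 with 0.19 ± 0.052, and 6 fell, the polyamine oxidase Paox most with -1.52 ± 0.052. The median of that list was -0.21, below that of all genes.

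Peroxins and other membrane and division factors rose in 12 of 21 cases and fell in 4, with a median of 0.25 against 1.71 for Pex11a itself. The largest rise was that of Abcd4, known for cobalamin transport in lysosomes, with 0.85 ± 0.064, and the largest fall that of Pex10 with -0.28 ± 0.049. A list of regulators, with PPARs, RXRs, coactivators, corepressors and the clock repressors Nr1d1 and Nr1d2, rose in 10 of 14 cases and fell in 3. Ppara rose by 0.64 ± 0.075, the coactivator Lpin1 by 2.31 ± 0.18, and Ppard fell with -1.14 ± 0.058.

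Mitochondrial beta-oxidation served as the nearest comparison. Of its 14 genes 13 rose and 1 fell, with a median of 0.75, close to the 0.78 of the 9 peroxisomal genes. Cpt1a, the carnitine palmitoyltransferase at the gate of mitochondrial oxidation, rose by 1.46 ± 0.053, less than Ehhadh, Pex11a or Crat in value, and Echs1, a short-chain hydratase, fell with -0.12 ± 0.033. The Cyp4a genes, omega-hydroxylases that make the dicarboxylic acids peroxisomes take up, rose in 5 of 6 cases with a median of 2.77, Cyp4a14 most with 4.91 ± 0.19. These lists were not tested against one another.

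**Figure D5:**
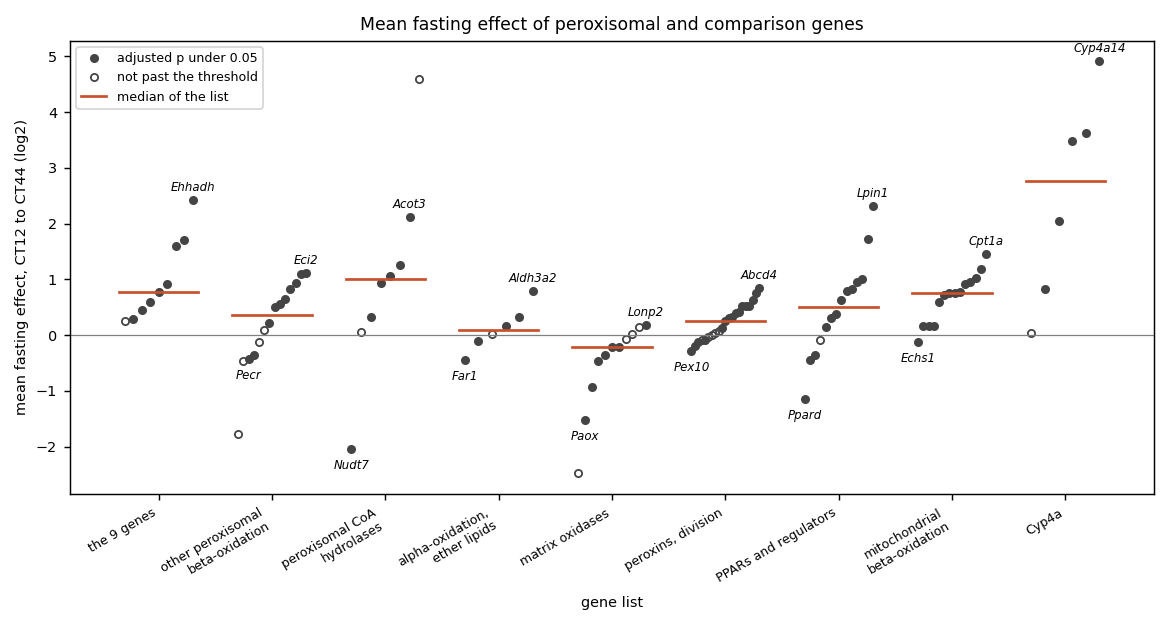
Mean fasting effect over CT12 to CT44, on the log2 scale, of the 9 genes and of 8 lists of peroxisomal, mitochondrial and regulatory genes, 1 point per gene tested, filled where the adjusted p was under 0.05, with the list's median as a bar and the largest called rise and fall named. Medians run from -0.21 for the matrix oxidases to 2.77 for the Cyp4a genes, and stand at 0.78 for the 9 genes.

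Markers of other liver cells were counted in the mean effect, where 29.5% of all genes were called higher and 32.9% lower. Of 7 Kupffer cell markers 6 fell and none rose, of 6 stellate markers 4 fell and 1 rose, of 5 bile duct markers 4 fell, of 6 leukocyte markers 3 fell and of 5 erythroid markers 2 fell. Of 6 endothelial markers 3 rose and 2 fell, and of 8 hepatocyte markers 4 rose and 2 fell, with a median of 0.06. Of 5 adipocyte markers 2 passed the filter and neither was called, and the summed level of these 2 was at most 2.57 CPM in any liver of CT12 to CT44. At single times the erythroid markers went both ways, with 3 higher and 1 lower at CT28 and all 5 lower at CT40 and at CT44. Their part in the rise of the 9 genes was not tested.

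Likeness in log2 CPM over the 20 means of treatment and time was searched among 11576 genes, and the 9 themselves were left out of the ranking. Most like Ehhadh were Ephx2 with a Pearson r of 0.983, Lamb3 with 0.981 and the unnamed ENSMUSG00000123342 with 0.978. Hsd17b4 was most like Ephx2 (0.994), Eci1 (0.988) and Lamb3 (0.984), Crat like Acot1 (0.976), Cpt2 (0.973) and Gk (0.973), and Pex11a like Acot2 (0.982), Paip1 (0.98) and Ppp2ca (0.98). Acaa1a was most like Zbed5, Atxn10 and Igbp1, each at 0.973, and Acaa1b like Gzf1 (0.898), Mgll (0.884) and Acsl1 (0.879). Abcd3 was like Pus10 (0.932) and Acot4 (0.913), Crot like Gm4952 (0.903), Glt28d2 (0.902) and Lamp2 (0.900), and Abcd2 like Stxbp2 (0.927), Prkca (0.899) and Scaper (0.888). Among the 9 genes, Abcd2 correlated with the others at -0.26 to 0.22. All these values share libraries and are descriptions without a test.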

How the data were processed

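The authors deposited raw counts per gene and raw counts per exon bin for 80 mouse liver libraries, both as whole numbers. They also deposited a table of the same gene counts divided by 1 factor per library, which was not used. The submitters' processing notes name Trimmomatic, HISAT2, DESeq2 and the build GRCm39, with no roles, and the counting program and its treatment of strand and of reads that match several genes are not given in the sources used here. No paper read for this work gives a test for this experiment, and the tests were chosen here.

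Gene counts were fitted in R 4.3.3 with edgeR 4.0.16, with 1 term for each of the 40 combinations of treatment, time and sex, TMM scaling, filterByExpr over these groups, which left 21187 genes, a trended dispersion, the quasi-likelihood test and Benjamini-Hochberg adjustment at 0.05. Printed levels are counts per 1000000 of the TMM-scaled totals (CPM), except those of Xist, which are of unscaled totals. A prior count of 2 entered the log2 CPM used for likeness and for the check of replicate numbers, and not the fitted differences. Rhythms were tested as a cosine and a sine of 24 h, with sex as a term, and exon bins with diffSpliceDGE. Of the counts in each column of exon bins, 8.28% to 25.9% named no exon and were left out. The scripts were tested on simulated data. Alternatives used limma 3.58.1, DESeq2 1.42.0, other scalings and filters, each replicate left out in turn and the other settings named with the results.

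Each mouse gave 1 library, so p-values measure the spread between mice. The mice were group-housed and the sample titles name no cage, so mice of a group may have shared a cage. A part of the cage in the differences cannot be told apart. Over 120 pairs of replicates the lowest chi-square per degree of freedom was 14.8, and no pair was counted as 1 library. With 25534900 to 59927800 counts a library, counting error was small beside that spread for these genes. The 9 genes and the other lists were chosen with earlier results of these data known. All 9 are described. Of the other lists, Acox2, Acox3, Scp2, Amacr and Ppara are named for their roles, and from each list that is no marker list the genes with the largest called rise and the largest called fall. For likeness, the 3 genes outside the 9 with the highest Pearson r are named for each of the 9. Some genes that these rules name are not reported here. Lengths and positions came from GENCODE M21 on GRCm38, and promoters from RefSeq on GRCm38.p6.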

Additional observations from a re-analysis of the deposited data

Results flagged for a closer look

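Single livers stood apart in 6 of 180 groups of 4 livers, 3.33% of them, by the gap between the lowest or highest liver and its nearest neighbour over the range of the group, read at Dixon's 95% critical value. Chance alone gives about 1 in 20. In each of the 6 the lowest liver was the one apart. Ehhadh was at 1218 CPM in fasted CT36 female 2, beside 2564 to 2653 in the other 3. Abcd3 was at 430.4 CPM in fasted CT40 female 2, beside 811 to 886, the liver that was also lowest for Crot. Acaa1b was at 433 CPM in fasted CT12 female 2, beside 856 to 931, and Hsd17b4 at 567 CPM in fasted CT44 female 1, beside 750.4 to 786. Among control livers, Pex11a was at 48.0 CPM in CT44 female 2, beside 106 to 108, and Crat at 51.8 CPM in CT24 male 1, beside 65.4 to 67.8.

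The fasting effect differed between the sexes, females minus males in log2, for Acaa1a at 0.25, Hsd17b4 at 0.23, Pex11a at 0.57 and Abcd2 at -1.26. It differed between the late and the early part of the fast for Ehhadh at 0.70 and Acaa1a at 0.54. For Ehhadh this change in turn differed between the sexes, at -1.77. The 24 h wave differed between fasted and control livers, from trough to peak in log2, for Ehhadh at 1.44, Acaa1a at 0.54, Hsd17b4 at 0.49, Pex11a at 1.65 and Abcd3 at 0.56. Of these 12 differences, the late minus early effect of Acaa1a and the wave of Pex11a kept the call in each of the 4 fits without 1 replicate, and the other 10 lost it in 2 to 4 of them.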

How the results depend on the processing

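Over 2648 values of single genes under the alternatives, 2477 kept their side of the threshold, 87 lost a call and 80 gained one. A change of sign was counted apart only where the main fit or the alternative called the value. Uncalled changes of sign are among the 2477, and sizes of rhythms and exon usage carry no sign. Counted so, 4 values turned. They were the mean effect of Abcd2 in females alone (-0.37) and Crot at CT40 without 1 replicate (-0.040 without female replicate 1, up to 1.08). The others were the late minus early effect of Ehhadh in females alone (-0.16) and without CT12 and CT36 (-0.34). Abcd3 at CT16, at 0.45, passed in 9 of 17 alternatives. The sex contrasts in the late minus early effect and at each time, the late minus early effect in males or females alone, and the fits without fasted CT40 female 2 and without control CT8 male 2 were chosen after seeing the data. Each treatment, time and sex held 2 mice, so leaving out a replicate leaves 1 mouse that is assumed to vary like the rest. Without the low-count filter, calls of the 9 genes over single times went from 47 to 63, those of Abcd2 at 9 of 10 times among them, and its mean effect of 0.25 passed. The cause of these changes was not tested.

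Counts among the 9 genes moved as follows. The late minus early effect, 2 genes, gave 4 without a filter, 1 with the Acaa1 copies summed, 0 in females alone, 4 without CT20 and CT44, and 1 to 3 without 1 replicate. The sex difference, 4 genes, gave 2 without control CT8 male 2 and 1 to 5 without 1 replicate, and that in fed mice, 8 genes, 5 to 8. The sex difference in the late minus early effect, 1 gene, gave 6 without a filter and 0 to 1 without 1 replicate. The rhythm difference, 5 genes, gave 2 without the linear change and 1 to 3 without 1 replicate. Exon usage, 4 genes, gave 2 at 10 or more counts in every library.

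Over all genes, the mean effect went from 13233 to 4359 at a call only past 1.5-fold, where 6 of the 9 genes passed. Effects summed over times went from 49118 to 28582 in males, 28190 in females and 25717 to 44241 without 1 replicate. At CT8, before the fast, 282 genes were called and 0 to 2123 without 1 replicate, 11 without control CT8 female 2. The late minus early effect went from 4483 to 1819 in males, 2717 in females, 1538 without CT16 and CT40, and 1449 to 4095 without 1 replicate, and the sex difference from 2621 to 238 to 2473. The sex difference in the late minus early effect went from 110 to 987 without a filter, 259 at 1 CPM or more in 8 libraries, 558 with DESeq2, 61 without fasted CT40 female 2, and 0 to 806 without 1 replicate. Control rhythms went from 8417 to 5104 in males and 4692 in females, rhythm differences from 4537 to 2461 to 3371, and exon usage from 1985 to 946 at 10 or more counts and 1083 to 1368 without 1 replicate.

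Replicate numbers did not pair the mice: deviations of same-numbered mice correlated over 0.1 in 1 of 20 groups of time and sex, from -0.056 to 0.249 with a median of 0.0019. With a replicate block the counts were 8 for the mean effect, 45 in place of 47 over single times, 1 for the sex difference, 7 for that in fed mice, where Abcd3 was lost, 3 for the rhythm difference and 48 over all genes for the sex difference in the late minus early effect.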
